A study of Mus musculus with 4 samples.

Results

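CD8_Tex is the name that the deposited annotation gave to the exhausted CD8 T cells among the immune cells of mouse mammary tumours. The cells described here were the barcodes with that name that also had a column in the count table. They numbered 794 of the 16383 cells with counts, 527 with barcodes ending in suffix 1 and 267 in suffix 2. The annotation itself named 2843 of 45781 barcodes CD8_Tex, of which 1000 had suffix 2, so the 267 are a part of that suffix (3221 of its 11961 annotated barcodes had counts here). Cells of suffixes 3 and 4 were not analysed here. Of the 794 cells, 253 of suffix 1 and 52 of suffix 2 carried 5 or more transcripts of the complement genes C1qa, C1qb and C1qc, which are known from macrophages. Cells without such transcripts are therefore described apart throughout.

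Exhaustion is a state that CD8 T cells enter under lasting antigen exposure, as in chronic infection and in tumours. The cells keep inhibitory receptors at their surface, among them PD-1 (the product of Pdcd1), CTLA-4 and CD160, lose part of their effector function, and may still divide. Xcl1 encodes a chemokine made by activated CD8 T cells and natural killer cells that attracts cross-presenting dendritic cells. Rgs16 encodes a regulator of G protein signalling that T cells express on activation. C1q, by contrast, is the first component of the classical complement pathway, and tissue macrophages are a main source of it.

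The host mice were BALB/c and carried tumours of 4T1, a mouse mammary cancer line that came from the same strain. The 4T1 cells were either wild-type (samples CON) or Mif-depleted (samples sgMif), so the depletion was in the tumour line and not in the T cells. Each group had 2 libraries, and each library was made from 3 dissociated tumours whose live CD45-positive cells were sorted for droplet sequencing. No label ties a barcode suffix to a library, so no value here compares control with Mif-depleted tumours, and suffixes 1 and 2 are given side by side without a condition. There are no replicates: each suffix was taken as 1 library, no test was run, and every interval covers counting error only.

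Counts were unique molecular identifiers (UMIs), 1 for each captured transcript, for 4099 genes of chromosomes 1 to 5. A level is the UMIs of a gene summed over a class of cells, per 10000 UMIs of all these genes in the same cells. The genes of the CD3 complex, of CD8 itself and of Mki67 (the proliferation gene that stands in brackets beside the name in the annotation) were not analysed here. Marker levels are therefore given for Pdcd1 (chromosome 1, 94038305 to 94052553, minus strand), Xcl1 (chromosome 1, 164931644 to 164935527, minus strand) and Cd160 (chromosome 3, 96798763 to 96829351, minus strand), all on GRCm38. Xcl1 and Cd160 are also on the list of natural killer cell markers. How the names were assigned is not given in the sources used here, so they may rest on some of the genes below, and every level is a description rather than support for the name. Suffixes 1 and 2 shared 12 barcode sequences over all cells and 0 among CD8_Tex.

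CD8_Tex cells split by their C1q transcripts. In suffix 1, 106 of 527 cells (20.1%, exact Clopper-Pearson 95% interval 16.8% to 23.8%) had 0 C1q UMIs, 168 had 1 to 4, and 253 (48.0%, 43.7% to 52.4%) had 5 or more, with a median of 164 in the last class. In suffix 2, 91 of 267 cells (34.1%, 28.4% to 40.1%) had 0, 124 had 1 to 4, and 52 (19.5%, 14.9% to 24.7%) had 5 or more, with a median of 111.5. The high class was thus the largest in suffix 1 and the smallest in suffix 2. Free RNA in droplets can give such UMIs to any cell. Among the other lymphocytes, 5 or more C1q UMIs were found in 0.899% and 1.49% of the pooled CD4 T cells of suffixes 1 and 2, in 0 of 58 and 0 of 53 natural killer cells, and in 2.24% and 14.05% of B cells. Macro_Maf, a macrophage name, had them in 92.0% and 93.0% of its cells. The cells of the high class were also deeper, with a median of 5447 UMIs against 1169.5 in the C1q-free cells of suffix 1, and 5914 against 1509 in suffix 2. With each cell thinned to 500 UMIs, the high class still held 42.2% and 14.8% of the CD8_Tex cells, and the C1q-free class held 38.0% and 66.2%.

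**Figure D1:**
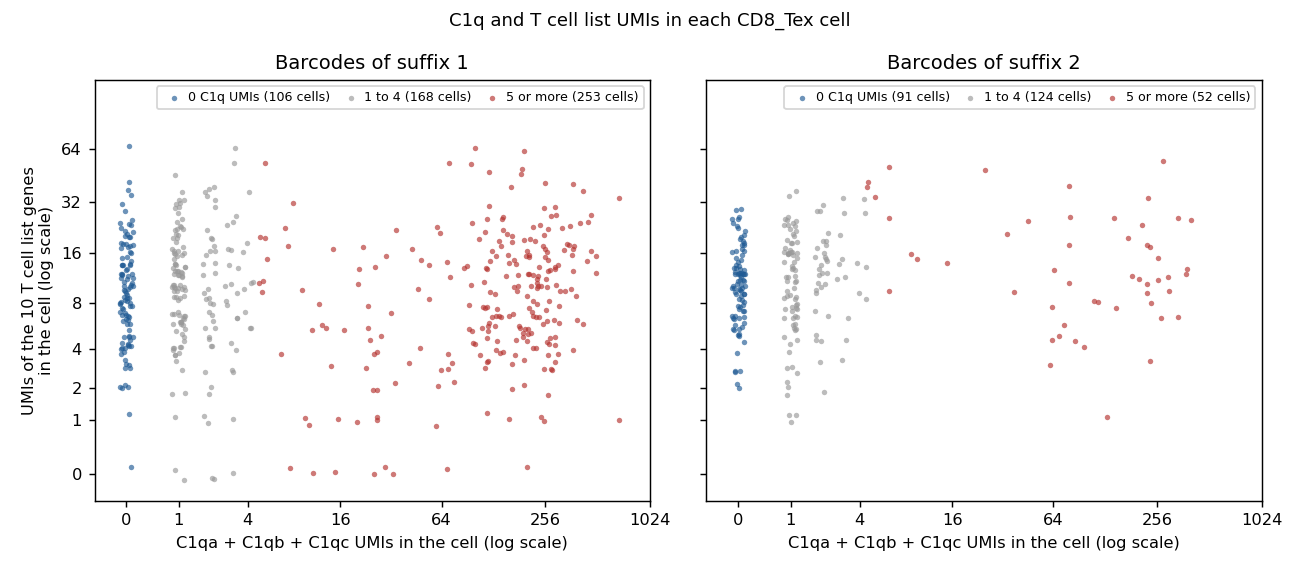
Each point is 1 CD8_Tex cell, by its summed C1qa, C1qb and C1qc UMIs (x axis, log scale) and its UMIs of 10 T cell genes (y axis, log scale), with small random offsets, for suffix 1 (left) and suffix 2 (right). The cells with 5 or more C1q UMIs, most numerous near a median of 164 in suffix 1, reach the same T cell counts as the cells with 0.

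The cells of the high class held T cell transcripts and macrophage transcripts in the same barcodes. A list of 10 genes of T cell receptor signalling and costimulation (Cd247, Lck, Zap70, Cd2, Cd28, Ptpn22, Sh2d2a, Prkcq, Nfatc2 and Ptpn7) gave a median of 9 UMIs per cell in the C1q-free cells of suffix 1 and 9 in those with 5 or more C1q UMIs, with means of 11.8 and 11.99. In suffix 2 the medians were 11 and 12 and the means 11.7 and 17.3. In Macro_Maf cells with 5 or more C1q UMIs the median was 1 in both suffixes. Of the 253 high cells of suffix 1, 225 had 3 or more UMIs of the list (88.9%), as did 51 of 52 in suffix 2, against 21.7% and 18.8% of the Macro_Maf cells. The T cell UMIs per high cell were thus close to those per C1q-free cell in suffix 1 and more in suffix 2, and in both a smaller share of all its UMIs. The level of the list was 66.2 [62.6, 69.9] in the C1q-free and 19.1 [18.4, 19.8] in the high cells of suffix 1, and 61.3 [57.6, 65.1] and 25.4 [23.8, 27.1] in suffix 2, and 3.76 and 4.20 in Macro_Maf.

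Macrophage genes went the opposite way. The 15 measured macrophage markers other than the C1q genes, among them the mannose receptor gene Mrc1 and the Fc receptor genes, averaged 7.36 UMIs per C1q-free cell and 248 per high cell in suffix 1, beside 221 in Macro_Maf. In suffix 2 they averaged 12.1, 221 and 213. A high CD8_Tex cell thus carried on average at least as many macrophage UMIs as a Macro_Maf cell, at a greater depth (median 5447 against 3809 UMIs in suffix 1, and 5914 against 3470 in suffix 2). The C1q genes were at 273 per 10000 in the high cells of suffix 1 and 214 in suffix 2, and at 450 and 446 in Macro_Maf. All 15 markers had at least 1 UMI somewhere in the C1q-free cells, at a summed level of 41.3 and 63.4, against 31.0 and 35.5 in C1q-free CD4 T cells, so a low macrophage signal remained there too. No doublet caller was run, and whether a barcode held 1 cell or several was not tested.

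**Figure D2:**
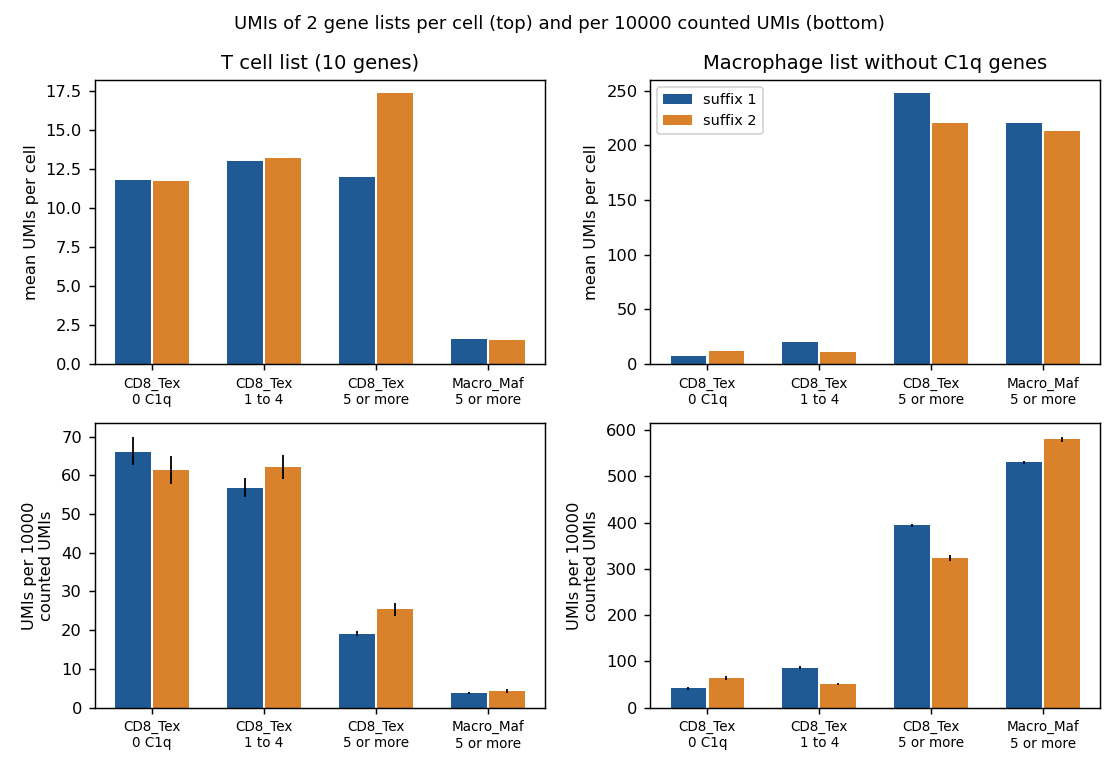
Bars give the mean UMIs per cell (top) and UMIs per 10000 counted UMIs with exact Poisson 95% intervals (bottom) of the T cell list (left) and the macrophage markers without C1q genes (right), for 3 CD8_Tex classes and Macro_Maf, in suffix 1 (blue) and suffix 2 (orange). The T cell list is near 12 UMIs per cell in the C1q-free and the high CD8_Tex cells of suffix 1, while the macrophage markers are at 7.36 and 248.

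Gene by gene, C1q-free cells were set against high cells of the same suffix. A gene was called where it had 50 or more UMIs over both sides and the exact 95% interval of the ratio lay beyond 2-fold. Of 2295 genes with enough UMIs in suffix 1, 254 were called (11.1%), 74 higher in the C1q-free cells (3.22%) and 180 lower (7.84%). In suffix 2, 126 of 1420 were called (8.87%), 20 higher (1.41%) and 106 lower (7.46%). Of these, 16 were higher and 93 lower in both suffixes. Scaled as UMIs per cell, with no account of depth, the split was 4 higher and 1432 lower in suffix 1 and 0 and 948 in suffix 2. The 2 suffixes are separate sets of cells, but the C1q classes were set in each by the same genes.

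The genes higher in C1q-free cells included T cell genes of several lists. Among 5 measurable effector genes, the chemokine gene Xcl1 was at 24.9 against 1.99 in suffix 1 (log2 ratio 3.65 [3.44, 3.86]), the cystatin gene Cst7 at 7.72 against 0.711, and the death ligand gene Fasl at 3.17 against 0.315. All 3 were called in suffix 2 as well, at log2 ratios of 2.59, 2.50 and 2.93. Zeb2 was called lower in both suffixes and Il10 in suffix 1, and Macro_Maf cells held more Zeb2 than the high cells. Pdcd1 was at 17.1 against 1.58 in suffix 1 (3.44 [3.20, 3.68]) and 8.33 against 1.52 in suffix 2 (2.45), Cd160 at 1.85 against 0.195 and 2.18 against 0.338, and Rgs16 at 19.1 against 2.43 and 26.0 against 3.30. Of 10 measurable inhibitory receptor and exhaustion genes, 5 were higher in suffix 1 and 3 in suffix 2, and 0 were lower, with median log2 ratios of 1.68 and 0.85 beside 0.07 over all genes in both suffixes. The 4-1BB gene Tnfrsf9, a costimulatory receptor, was called in both suffixes, while Tnfrsf4, Tnfrsf18, Icos and Il2ra were called in suffix 1 alone. Stat4, which carries interleukin-12 signals, was called in both, and the interleukin-18 receptor gene Il18r1 in suffix 1 (6.24 against 0.906) and not in suffix 2 (5.29 against 2.28).

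The genes lower in C1q-free cells included macrophage, monocyte and neutrophil genes. Of the 15 macrophage markers, 14 were lower in suffix 1 and 13 in suffix 2. Mrc1 was at 0.106 against 8.51 in suffix 1 and 0.287 against 5.53 in suffix 2. Ptgs1, Rab7b and Sdc3 were called lower in both suffixes. All 9 neutrophil markers were lower in suffix 1 and 6 of 7 in suffix 2. The alarmin gene S100a8 stood at 33.4 against 182 and at 7.82 against 165. A single cell held 48.7% of it in the C1q-free cells of suffix 1 (17.7 without that cell). In the high cells of suffix 2, 10 of 52 cells held 97.1% of it, and without them its level was 6.85, beside 6.69 in the C1q-free cells without their own 10 highest. In Macro_Maf cells with 5 or more C1q UMIs S100a8 was at 74.98 and 8.19, in those of Macro_Mgl2, another macrophage name, at 200 and 176, and in C1q-free neutrophils at 2493 and 2857. The part of mixed barcodes, and of neutrophil RNA, in these differences was not tested.

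In several other gene groups few or no genes were called. Of 25 and 21 measurable cell cycle genes, 0 were called, with median log2 ratios of 0.45 and 0.35. Stathmin (Stmn1), which regulates microtubules in dividing cells, was at 20.6 in C1q-free and 13.3 in high cells of suffix 1, and at 27.4 and 16.7 in suffix 2. All 14 ribosomal protein genes were uncalled in both suffixes. Runx3, the transcription factor gene of cytotoxic T cells and the only measured member of the CD8 identity list, was at 16.1 against 11.97 and 18.0 against 10.2, but Macro_Maf had 11.9 and 10.4 of it. Genes of naive T cells leaned the other way in suffix 1, with Lef1 at 0.688 in C1q-free and 2.05 in high cells and S1pr1 at 0.740 and 2.21, neither of them called, while Bcl2, a survival gene on the same list, was called higher in the C1q-free cells. In suffix 2 Lef1 was at 2.24 and 1.69 and S1pr1 at 2.70 and 2.82.

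In the C1q-free cells, Pdcd1 was widespread and Xcl1 came from few cells. Pdcd1 was detected in 68 of 106 cells of suffix 1 (64.2%) and 53 of 91 of suffix 2 (58.2%), with medians of 1169.5 and 1509 UMIs per cell. In C1q-free neutrophils, which should lack it, 9 of 2723 (0.331%, median 1064 UMIs) and 1 of 444 (0.225%, median 958) had a UMI. Thinned to 500 UMIs, 53.6% and 32.2% of the CD8_Tex cells kept a Pdcd1 UMI, against 8.25% and 11.4% of C1q-free CD4 T cells and 5.65% and 3.85% of high CD8_Tex cells. The 10 cells with most Pdcd1 held 42.0% and 42.1% of its UMIs, and without them its level went from 17.1 to 12.1 in suffix 1 and from 8.33 to 5.50 in suffix 2.

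Xcl1 was detected in 35 of 106 and 15 of 91 C1q-free cells, against 23 of 2723 (0.845%) and 4 of 444 (0.901%) neutrophils. A single cell held 172 of the 471 Xcl1 UMIs of suffix 1, and another 116 of the 231 of suffix 2. Leaving out that cell moved the level from 24.9 to 16.3 in suffix 1 and from 13.3 to 6.68 in suffix 2. Leaving out the 10 highest cells, most of those with any Xcl1 in suffix 2, moved it to 5.28 and 0.517.

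Rgs16 was detected in 65 and 58 cells (15 and 8 neutrophils), and its level without the 10 highest cells was 12.3 and 11.8, from 19.1 and 26.0. Cd160 was detected in 17 and 19 cells (2 and 1 neutrophils), with at most 5 UMIs in a cell, and 10 cells held 80.0% and 76.3% of it (levels of 0.470 and 0.595 without them, from 1.85 and 2.18). Pdcd1, Xcl1 and Cd160 were found together in part of the cells. In suffix 1, 25 cells had both Pdcd1 and Xcl1, 80 had at least 1 of Pdcd1, Xcl1 and Cd160, and 26 had none. In suffix 2 these were 11, 59 and 32. At these depths a cell with 0 UMIs of a marker may still express it.

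The cells with 1 to 4 C1q UMIs stood nearer to the C1q-free than to the high cells in both lists. Their T cell list stood at 56.8 and 62.1, Pdcd1 at 9.70 and 12.002, Xcl1 at 22.5 and 6.38, Rgs16 at 19.8 and 20.97, and Cd160 at 1.98 and 1.37 in suffixes 1 and 2. Their macrophage markers stood at 86.0 and 51.2, against 394 and 323 in the high cells.

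**Figure D3:**
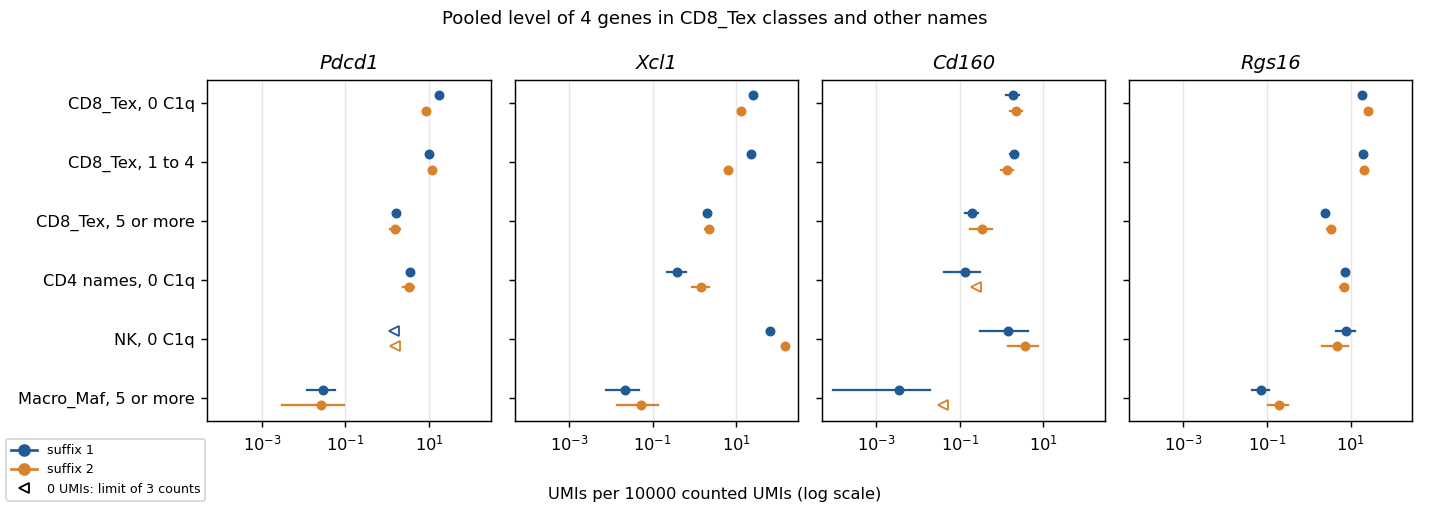
Points give the level of Pdcd1, Xcl1, Cd160 and Rgs16 (UMIs per 10000 counted UMIs, log scale) with exact Poisson 95% intervals, in 3 CD8_Tex classes, C1q-free CD4 T cells and natural killer cells, and Macro_Maf, for suffix 1 (blue) and suffix 2 (orange). Open triangles mark 0 UMIs at the limit that 3 counts would give, as for Pdcd1 in natural killer cells.

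Among C1q-free cells of all names with 20 or more such cells (19 names in suffix 1, 14 in suffix 2), CD8_Tex stood first for Pdcd1, Rgs16, Cst7 and Stmn1 in both suffixes. For Pdcd1 the next name was CD4_Treg, at 7.71 [6.10, 9.63] against 17.1 [15.3, 19.1] in suffix 1 and 5.95 [3.81, 8.85] against 8.33 [7.03, 9.81] in suffix 2, where the intervals overlap. CD4_Th, with only 18 C1q-free cells in suffix 1, was at 24.0 [17.7, 31.97] there and at 3.75 in suffix 2. The first place of CD8_Tex in suffix 1 thus held only among C1q-free cells of names with 20 or more of them. Over all cells of suffix 1, CD4_Th (56 cells) was at 17.6 and CD4_Treg (220 cells) at 7.88, both above CD8_Tex (527 cells) at 4.38. Over all cells of suffix 2, CD8_Tex was at 6.503, above CD4_Treg at 4.59 and CD4_Th at 3.25. For Rgs16 the intervals of CD8_Tex and CD4_Treg overlap in suffix 1, at 19.1 and 18.2. In suffix 2 fibroblasts came next, at 22.5 [18.8, 26.7], an interval that overlaps the 26.0 [23.6, 28.5] of CD8_Tex, and CD4_Treg was at 18.1 [14.2, 22.7]. The intervals of CD8_Tex and the next name also overlap for Cst7 (7.72 against 4.83 in natural killer cells, and 5.75 against 3.28 in CD4_Tcm) and for Stmn1 (20.6 against 20.5 in plasmacytoid dendritic cells, and 27.4 against 24.2 in B cells). Cd160 was first in suffix 1, at 1.85 against 1.45 in natural killer cells, and second to them in suffix 2, at 2.18 against 3.58, with overlapping intervals in both. Natural killer cells were above CD8_Tex in Xcl1 and Fasl, and CD4_Treg in Ctla4 (96.2 against 25.7, and 96.6 against 18.4) and Tnfrsf9 (38.7 against 16.1, and 36.9 against 16.9). Over all cells with counts, and 23 and 22 names, the genes whose levels ordered the names most like Pdcd1 were Il2ra (Spearman 0.79 in both suffixes), Tnfrsf18 (0.76 and 0.82), Acot7 (0.76 and 0.45), Xcl1 (0.75 and 0.68) and Pear1 (0.75 and 0.52), chosen in suffix 1 from 2924 genes. These levels share libraries and free RNA, and the correlations are a description.

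Set against C1q-free CD4 T cells (5 CD4 names pooled, 551 and 123 cells, with 240 CD4_Tn and 124 CD4_Tcm cells in suffix 1 and 21 and 21 in suffix 2), CD8_Tex cells held more transcripts of effector and cell division genes and fewer of naive T cell genes. In suffix 1, 96 of 1386 genes were called (6.93%), 53 higher in CD8_Tex (3.82%) and 43 lower (3.1%). In suffix 2, 36 of 913 were called (3.94%), 23 higher (2.52%) and 13 lower (1.42%). Calls shared by both suffixes were 17 higher and 11 lower. As UMIs per cell the split was 613 higher and 12 lower, and 157 and 5, the CD8_Tex cells being deeper (median 1169.5 against 635 UMIs, and 1509 against 899).

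Of 5 measurable effector genes 4 were higher in suffix 1, and of 4 in suffix 2 there were 2. Il10, which encodes an immunosuppressive cytokine, was lower in suffix 1, at 0.0529 against 3.01. Xcl1 was at 24.9 against 0.390 in suffix 1 (log2 ratio 5.999 [5.26, 6.85]) and 13.3 against 1.45 in suffix 2 (3.20), with the concentration in few cells given above. Fasl was at 3.17 against 0.260 and 2.59 against 0.402, and came from 35 and 29 cells with at most 5 UMIs in one. Cst7 was called in suffix 1 alone, at 7.72 against 1.298, and stood at 5.75 against 1.85 in suffix 2. Zeb2, a transcription factor gene of terminal effector cells, was called in suffix 1 (3.81 against 1.06) and not in suffix 2 (4.08 against 1.61). It was at 20.2 and 21.2 in Macro_Maf, and the part of macrophage RNA in the call was not tested.

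Inhibitory receptor genes divided. Rgs16 was higher in both suffixes, at 19.1 against 7.505 and 26.0 against 6.83. Pdcd1 was higher in suffix 1, at 17.1 against 3.56 (2.27 [1.98, 2.57]), and in suffix 2 its ratio, 8.33 against 3.30 (1.34 [0.83, 1.88]), had an interval that reached below 2-fold. Nr4a2, a nuclear receptor gene induced by T cell receptor signals, was called in suffix 1 alone, at 21.1 against 7.79. Ctla4 was not called in either suffix, at 25.7 against 32.7 and 18.4 against 36.8, nor was Tox, at 2.54 against 4.96 and 2.36 against 4.58. Cd160 had too few UMIs for a call, at 1.85 against 0.130 and 2.18 against 0 UMIs in the 123 CD4 cells. Of 8 measurable members of the list, 3 were higher in suffix 1 and 1 in suffix 2, with 0 lower. The median log2 ratios of these members were nevertheless below those over all genes, at -0.325 and -0.699 beside 0.09 and 0.10. The list as a whole was thus not shifted upward against CD4 cells by its median.

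T cell receptor signalling genes were lower in sum in CD8_Tex than in CD4 cells. Of 10 and 9 measurable genes, 0 were higher, and Cd2 (10.4 against 24.9) and Prkcq (1.38 against 4.75) were lower in suffix 1, with 0 lower in suffix 2. Over all genes 3.1% and 1.42% were lower. The level of the list was 66.2 [62.6, 69.9] against 85.2 [82.3, 88.2] in suffix 1, and 61.3 [57.6, 65.1] against 72.8 [68.1, 77.7] in suffix 2. Per cell the order was reversed, with means of 11.8 against 5.96 UMIs of the list in suffix 1 and 11.7 against 7.36 in suffix 2. The CD8_Tex cells were also the deeper ones. Lck, the proximal kinase of the receptor, was at 10.0 against 9.92 and 10.2 against 10.1. Of 8 and 7 measurable genes of costimulatory receptors and activation, 0 were higher in either suffix, and Tnfrsf25 was lower in suffix 1. Their summed level was 69.1 against 76.5 and 65.5 against 99.8.

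Naive and memory genes were lower. Of 6 measurable members 5 were called lower in suffix 1 and 3 in suffix 2. Lef1, a transcription factor gene of naive T cells, was at 0.688 against 25.3 in suffix 1 (log2 ratio -5.20) and 2.24 against 8.44 in suffix 2 (-1.91). S1pr1, which lets lymphocytes leave tissue, was at 0.740 against 19.0 (-4.68) and 2.70 against 8.76 (-1.70). Dapl1 was at 0.159 against 11.2 (-6.15) and 0.632 against 6.99 (-3.47). The phosphatase gene Dusp10 was lower in both suffixes (-3.94 and -2.63). In suffix 2 the CD8_Tex cells had more of Lef1 and S1pr1 than in suffix 1, and the CD4 cells had less. CD4_Tn and CD4_Tcm were also a smaller part of the CD4 cells in suffix 2, and the effect of this on the levels was not tested.

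Cell division genes were higher. Of 26 measured cell cycle genes, 14 in each suffix had enough UMIs over both sides. Of these, 11 were called higher in suffix 1 and 10 in suffix 2, with 0 lower. Their median log2 ratios were 2.998 and 3.12, beside 0.09 and 0.10 over all genes. The minimum sums both sides, so a gene with few UMIs in CD4 cells entered mainly through its UMIs in CD8_Tex cells. These counts and medians are therefore partly set by the minimum. Summed over all 26 genes, the level was 186 against 66.5 in suffix 1 and 212 against 80.1 in suffix 2. Stmn1 was at 20.6 against 2.57 and 27.4 against 2.17. The cyclin gene Ccna2 was at 2.91 against 0.0519 and 4.88 against 0.322. Tpx2, a spindle assembly factor gene, had 63 UMIs in CD8_Tex cells of suffix 1 and 0 in the CD4 cells. With 3 counts in place of 0 it was 42.8-fold higher (lower end of the log2 interval 5.08), and in suffix 2 it was at 3.33 against 0.241. Thymidylate synthase (Tyms) was at 5.39 against 0.260 and 5.75 against 0.724, and the replication licensing gene Mcm3 at 4.34 against 0.545 and 4.31 against 1.21. Nusap1, Cdca8, Ube2c and Cks1b were likewise called in both suffixes. Smc2, a condensin gene outside the list, was at 7.93 against 1.06 and 6.90 against 1.05. Much of these UMIs came from few CD8_Tex cells. In suffixes 1 and 2, 10 cells held 87.3% and 70.6% of Ccna2 (0.478 and 1.84 without them) and 85.7% and 75.9% of Tpx2 (0.622 and 1.02). For Ube2c the share was 88.1% and 81.5%, and for Stmn1 61.0% and 60.8% (10.8 and 14.1).

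**Figure D4:**
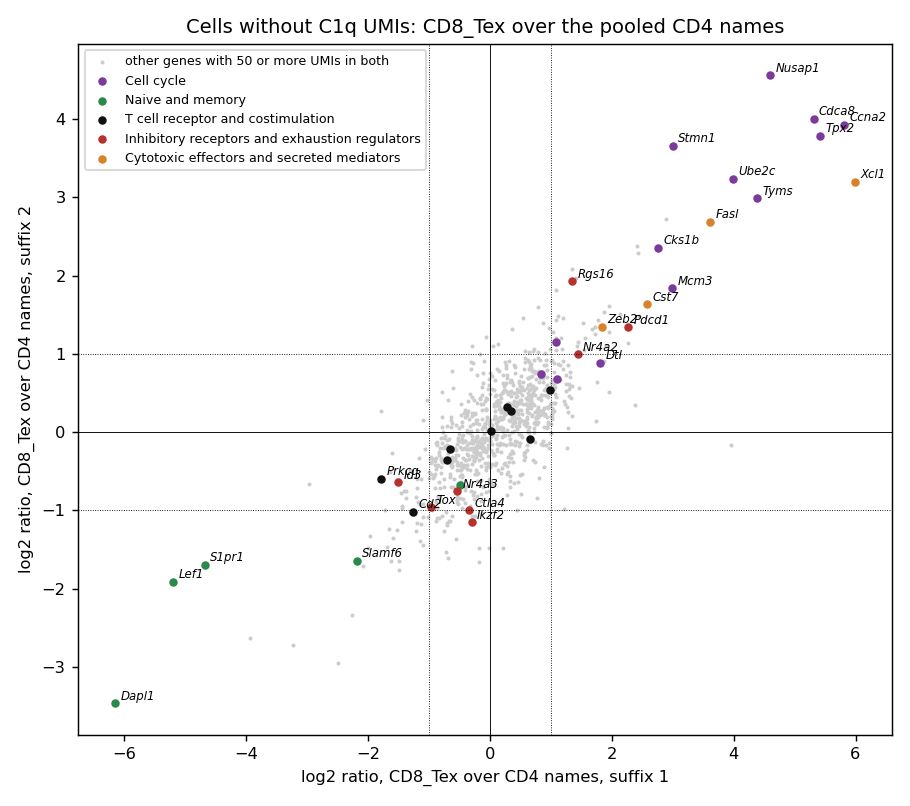
Each point is a gene with 50 or more UMIs in both suffixes (genes not reported here are not drawn), by its log2 ratio of the level in C1q-free CD8_Tex over that in C1q-free CD4 T cells, in suffix 1 (x axis) and suffix 2 (y axis), coloured by gene list, with dotted lines at 2-fold. Cell cycle genes and Xcl1 lie at the upper right, naive genes at the lower left, and T cell receptor genes near 0, apart from Cd2 and Prkcq.

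A few further calls against CD4 cells also came from few cells. In suffix 1 the interleukin gene Il1a was at 2.64 against 0.234, with 42 of its 50 UMIs in 1 cell, and in suffix 2 it was at 0.287 against 0.241. Il1b was at 20.4 against 4.23 in suffix 1, with 51.3% of its UMIs in 1 cell, and at 1.20 without 10 cells. The fibronectin gene Fn1 was at 8.25 against 1.58, with 60.9% in 1 cell, and at 0.128 without 10 cells. These 3 genes are known from myeloid cells. Of the 15 macrophage markers, 7 and 6 had enough UMIs against CD4 cells, and 0 of these were called. The summed level of the 15 was still higher in CD8_Tex, at 41.3 [38.4, 44.3] against 31.0 [29.3, 32.8] in suffix 1. In suffix 2 it was 63.4 [59.8, 67.3] against 35.5 [32.2, 38.9].

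Against natural killer cells the number of cells limited what could be read, with 25 and 28 C1q-free cells in suffixes 1 and 2. In suffix 1, 28 of 704 genes were called (3.98%), 13 higher in CD8_Tex (1.85%) and 15 lower (2.13%). In suffix 2, 18 of 661 were called (2.72%), 7 higher (1.06%) and 11 lower (1.66%). As UMIs per cell the split was 105 and 4, and 175 and 1. Pdcd1 separated them in both suffixes: it had 324 and 145 UMIs in CD8_Tex cells and 0 in natural killer cells. With 3 counts in place of 0 it was 11.8-fold and 5.43-fold higher (lower ends of the log2 intervals 3.26 and 2.13). Ass1, which encodes argininosuccinate synthase of arginine synthesis, was the other gene called higher in both, with 81 and 78 UMIs against 0. In CD8_Tex 10 cells held 71.6% and 91.0% of Ass1, and its level without them was 1.53 and 0.533, from 4.28 and 4.48. Ctla4 (25.7 against 2.41), Tnfrsf4 (8.20 against 0.483), Icos (10.3 against 1.45) and Tnfrsf9 (16.1 against 3.38) were called in suffix 1 and not in suffix 2, where Ctla4 was at 18.4 against 6.13.

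Natural killer cells held more of several genes. Xcl1 was at 63.3 and 148 in them, against 24.9 and 13.3 in CD8_Tex (log2 ratios -1.34 and -3.48), and was detected in 12 of 25 and 17 of 28 cells. Few cells held most of it here too. Without the highest cell the natural killer level was 38.3 and 109. Without the 10 highest cells the natural killer level was 1.71 and 10.5, and that of CD8_Tex was 5.28 and 0.517. These 10 are a far larger part of 25 and 28 natural killer cells than of 106 and 91 CD8_Tex cells. The levels without them therefore cannot be ranked between the 2 names. Carbonic anhydrase Car2 was at 21.7 against 1.38 in suffix 1 and 15.8 against 2.59 in suffix 2, and the signalling chain gene Fcer1g, which couples activating receptors, at 45.9 against 7.14 and 50.6 against 9.31. Fcer1g is also among the macrophage markers used above. Il18rap, an interleukin-18 receptor chain, and Ugcg, a glycolipid synthesis gene, were lower in CD8_Tex in both suffixes too. The T cell signalling list had 0 of 8 genes called in either direction, at levels of 70.5 and 67.5 in natural killer cells. Cd160 had too few UMIs for a call, with 3 and 7 in natural killer cells.

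Cells with several mitotic transcripts were a minority. The UMIs of 16 genes of mitosis on the cell cycle list (among them Ube2c, Tpx2, Nusap1, Cdc20, Cenpf, Ccna2 and Aurka) were summed in each cell. In suffix 1, 20 of 106 C1q-free CD8_Tex cells (18.9%, 11.9% to 27.6%) had 3 or more UMIs of them and 66 had 0. In suffix 2, 26 of 91 (28.6%, 19.6% to 39.0%) had 3 or more and 43 had 0. Of C1q-free CD4 T cells 0 of 551 and 3 of 123 (2.44%) had 3 or more, and of natural killer cells 1 of 25 and 1 of 28. B cells reached 5.92% and 20.6%.

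Depth differed between these names and moved the shares. Thinned to 500 UMIs, the CD8_Tex shares were 11.3% [5.80%, 19.4%] and 21.1% [13.2%, 31.0%], and that of CD4 T cells 0 of 424 and 0 of 114. High CD8_Tex cells had 47.4% and 67.3% before and 15.7% and 25.0% after thinning, with intervals that overlap those of the C1q-free cells. Macro_Maf cells with 5 or more C1q UMIs had 20.1% and 16.4% before and 1.19% and 0 of 213 after thinning. Such cells of Macro_Mgl2 had 52.0% and 51.9% after thinning, so the high CD8_Tex cells lay between these macrophage names.

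**Figure D5:**
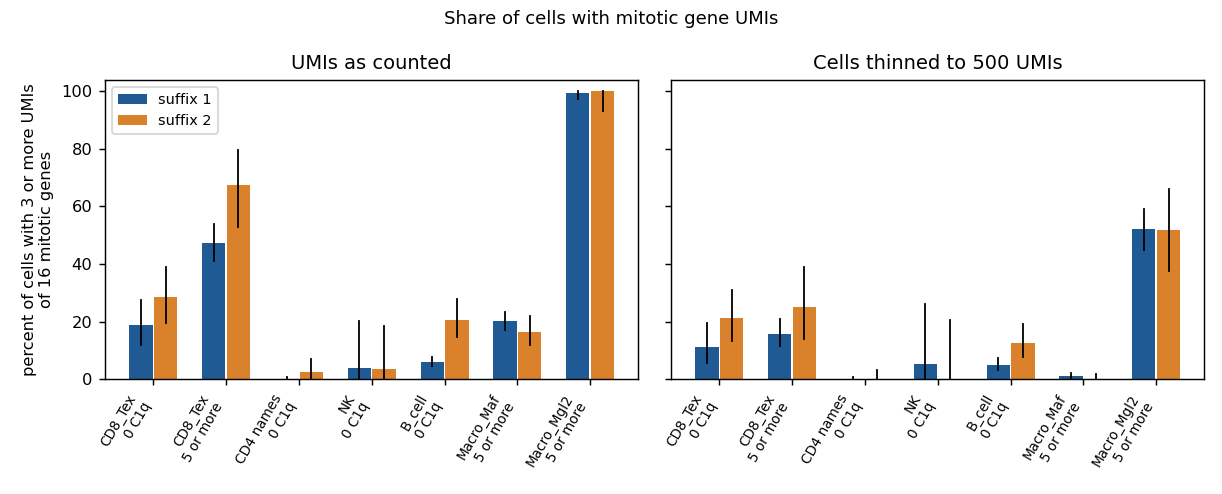
Bars give the percent of cells with 3 or more UMIs of 16 mitotic genes, with exact Clopper-Pearson 95% intervals, as counted (left) and with each cell thinned to 500 UMIs (right), in suffix 1 (blue) and suffix 2 (orange). C1q-free CD8_Tex cells stand at 11.3% and 21.1% after thinning, where CD4 T cells stand at 0.

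Within the C1q-free cells, those with 3 or more mitotic UMIs were deeper, with medians of 3064.5 against 966.5 UMIs in suffix 1 and 2713 against 1079 in suffix 2. Their T cell list was lower, at 59.3 [53.9, 65.1] against 71.3 [65.6, 77.3] in the cells with 0 mitotic UMIs of suffix 1 and 53.2 [48.3, 58.5] against 71.4 [64.7, 78.6] in suffix 2. Lck was at 6.97 against 12.5 and 8.65 against 12.6, and Cst7 at 4.83 against 8.88 and 2.31 against 8.86. The inhibitory list was at 125 against 120 in suffix 1 and 84.5 against 102 in suffix 2. Pdcd1 was at 15.4 against 19.9 in suffix 1 and 4.02 against 12.3 in suffix 2. Rgs16 was at 13.4 against 23.7 and 23.7 against 24.5. Xcl1 was at 42.4 against 10.9 in suffix 1 and 3.04 against 26.4 in suffix 2, the opposite order, with 83.4% and 96.5% of its UMIs in 10 cells. Genes of DNA synthesis and chromatin were higher in the mitotic cells, with Pcna at 24.0 against 9.12 and 27.4 against 11.1, and the histone gene H2afz at 166 against 32.8 and 150 against 44.5. The part of depth in these levels was not tested.

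The high cells were last set against Macro_Maf cells that also had 5 or more C1q UMIs. In suffix 1, 116 of 2681 genes were called (4.33%), 116 higher in the CD8_Tex cells (4.33%) and 0 lower (0). In suffix 2, 88 of 1934 were called (4.55%), 83 higher (4.29%) and 5 lower (0.259%). Of these, 56 were higher in both. The 5 lower genes were B3gnt7, Nr1h3, Id1, Mmp9 and Tlr12, named after their values were seen. Of 10 and 9 T cell signalling genes, 8 and 7 were higher. Of 25 and 21 cell cycle genes, 17 and 14 were higher. The cell cycle list as a whole stood at 138 and 162 in the high CD8_Tex cells, 83.6 and 68.6 in Macro_Maf and 238 and 207 in Macro_Mgl2. Of 15 macrophage markers 0 were called in either suffix, with median log2 ratios of -0.39 and -0.81.

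The T cell genes of the high cells included genes of exhausted, regulatory and naive T cells. Pdcd1 was at 1.58 against 0.0284 in suffix 1 (log2 ratio 5.80) and 1.52 against 0.0256 in suffix 2, Xcl1 at 1.99 against 0.0213 and 2.20 against 0.0512, and Ctla4 at 5.84 against 0.213 and 9.53 against 0.102. In the high cells 10 cells held 89.9% and 100% of Xcl1 (0.212 and 0 without them), and 48.6% and 92.6% of Pdcd1 (0.858 and 0.138). All 7 measurable markers of regulatory T cells in suffix 1 and all 6 in suffix 2 were higher than in Macro_Maf, among them Il2ra, Ikzf2, Tnfrsf4 and Icos. That list stood at 20.1 and 36.8 in the high cells, 81.2 and 67.5 in the C1q-free CD8_Tex cells and 111 and 146 in CD4 T cells, and shares Ctla4, Icos, Il2ra, Tnfrsf4 and Tnfrsf18 with the lists of activation and inhibition. The naive genes Lef1, Bcl2 and S1pr1 were higher than in Macro_Maf in both suffixes, and Dapl1 in suffix 1. The lists of neutrophil and B cell markers were at 429 and 2.47 in the high cells of suffix 1, and at 93.8 and 0.370 in the C1q-free cells. Neutrophil markers called higher than in Macro_Maf were 2 of 9 in suffix 1 (S100a8 and Lcn2) and 5 of 7 in suffix 2. Of these, S100a8 and S100a9 in suffix 2 had 97.1% and 96.5% of their UMIs in 10 of 52 cells, and stood at 6.85 and 8.46 without them. The part of these other cell types in the high cells was not tested.

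Some marker lists of other cell types were low in the C1q-free CD8_Tex cells, and others were above CD4 T cells. The fibroblast list was at 0.476 and 0.345, the endothelial list at 0.0529 and 0, the epithelial list at 0.159 and 0.172, and the only measured mast cell and basophil marker had 0 UMIs in both suffixes. The endothelial and epithelial lists had only 3 measured genes each. The erythroid list, with 2 measured genes (Car2 and Epb41), was at 3.70 and 4.94, beside 3.51 and 3.14 in CD4 T cells. The dendritic cell list (4 measured genes) was at 1.43 and 2.07, against 0.415 and 0.0804 in CD4 T cells and 1.37 and 1.63 in Macro_Maf. The monocyte list (4 measured genes) was at 28.9 and 10.5, against 6.26 and 5.31 in CD4 T cells. Most of it came from Il1b and Fn1, with 386 and 156 of 546 UMIs in suffix 1 and 129 and 41 of 183 in suffix 2. A single cell held 51.3% of Il1b and 60.9% of Fn1 in suffix 1, and 50.4% and 65.9% in suffix 2. Without 10 cells, Il1b was at 1.20 and 1.52 and Fn1 at 0.128 and 0.216.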

How the data were processed

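Single-cell RNA was sequenced by a droplet method from sorted CD45-positive tumour cells. The deposited counts are UMIs per gene and cell, and the deposited annotation gives a name to each barcode. The submitters' processing notes list Cell Ranger, Seurat, GRCm38 and mm10 and give them no roles. The genes held run from Mrpl15 on chromosome 1 to Gm1673 on chromosome 5, in 4099 complete rows, and 1 incomplete row was left out. Of the symbols, 4067 were found in GENCODE M21, from which positions were taken. No cell was filtered and no doublet caller was run.

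UMIs were summed over the cells of a class and divided by all UMIs counted there, per 10000. Levels have exact Poisson 95% intervals, ratios exact conditional binomial ones and shares Clopper-Pearson ones, all for counting error only. The C1q genes were left out of the 4 comparisons. A limit against 0 UMIs used 3 counts. The named genes were, per comparison, the 12 highest and 12 lowest log2 ratios among calls of suffix 1 with the same sign in suffix 2, plus members of the gene lists. Single values of some list members are not reported here, and the counts and sums of their lists include them. The 16 mitotic genes, and the cells left out for holding most UMIs of a gene, were chosen after the values were seen. The members and the 29 lists (188 of 367 genes measured) were chosen with earlier results of these data known. A planned test of Mif-depleted against wild-type tumours was not run, because 0 suffixes are tied to a sample. The ratio code was tested on simulated data. Python 3.11.15, numpy 2.4.6, pandas 2.3.3, scipy 1.17.1 and matplotlib 3.10.9 were used.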

Additional observations from a re-analysis of the deposited data

How the results depend on the processing

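No paired analysis was possible because no label ties a barcode suffix to a sample, so the planned edgeR test with its replicate block, its DESeq2 and filter alternatives and its replicate leave-outs were not run. Of 106 alternatives to the counts of called genes, list ratios and class shares, 44 stayed within the limits set for them, 60 moved beyond and 2 changed sign. Counts are given in the order C1q-free against high CD8_Tex, against CD4, against natural killer cells, and high CD8_Tex against Macro_Maf, each for suffixes 1 and 2. As UMIs per cell they were 1436 and 948, 625 and 162, 109 and 176, and 243 and 343. Thinned to 500 UMIs a cell they were 89 and 20, 37 and 16, 9 and 7, and 14 and 5, with fewer UMIs to test. With a 3-fold limit they were 137 and 76, 45 and 20, 11 and 8, and 73 and 52. With 20 UMIs as the minimum the count against CD4 was 147 and 68. In cells with 1000 or more UMIs it was 44 in suffix 1, and against natural killer cells 12 and 8.

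The log2 ratio of the T cell list between C1q-free and high cells was 1.79 and 1.27 per 10000 UMIs, and changed sign per cell, at -0.023 and -0.56. It was 1.67 in cells with 1000 or more UMIs of suffix 1, and 1.97 and 1.43 as a mean of each cell's own level. The macrophage list, at -3.26 and -2.35, was -5.07 and -4.18 per cell, -3.67 and -3.07 thinned, and -3.54 and -3.12 as a cell mean. The cell cycle list against CD4, at 1.49 and 1.41, was 2.84 and 2.33 per cell, 0.90 and 1.03 thinned, and 0.95 and 1.02 as a cell mean. The naive list against CD4, at -2.68 and -1.51, was -1.33 and -0.59 per cell, -2.42 and -1.80 thinned, and in suffix 1 -1.87 in cells with 1000 or more UMIs and -2.23 as a cell mean. The T cell list in high cells against Macro_Maf, at 2.34 and 2.60, was 2.94 and 3.49 per cell, 2.69 and 3.09 thinned, and 2.53 and 2.80 as a cell mean. Thinned, the shares of cells with 0 C1q UMIs were 38.0% and 66.2%, and with 5 or more 42.2% and 14.8%. Apart from the constructions named, the cause was not tested. Of 425 alternatives for single genes and shares, 270 stayed and 155 moved, with 0 changes of sign. Depth limits the calls for genes under 50 UMIs, such as Cd160 against CD4 cells, and only 25 and 28 natural killer cells could be compared.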
